A study of Mus musculus with 4 samples.

Results

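Cytokine transcripts of T helper cells were followed in cultured mouse CD4+ T cells at a normal and at a fever-range temperature, with and without a Smad4 knockout label. The genes were Il17a, Il17f, Il21, Il22, Il9, Il10, Il24, Il2, Il4 and Csf2, chosen by name, and all 10 were found among the 19555 gene rows measured in each library. Naive CD4+ T cells had been sorted from the spleen and lymph nodes of C57BL/6 mice and cultured for 3 days with IL-6 and TGF-β1, the cytokine pair that induces T helper 17 (Th17) cells. The 4 groups were wild type (WT) at 37 °C, WT at 39.5 °C, Smad4 KO at 37 °C and Smad4 KO at 39.5 °C, with 1 library in each. All 4 groups share the strain, the cytokines and the culture time, and no source used here names the Smad4 allele, the cells it was deleted in or how many mice went into a library. The comparisons ask whether heat alters cytokine transcripts in Th17 cultures and whether that depends on Smad4, the SMAD protein that the TGF-β and BMP pathways share.

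Helper T cells act on other cells largely through secreted cytokines, and each lineage is known for its own set. Th17 cells make IL-17A and IL-17F, which act on epithelial and stromal cells to draw in neutrophils, together with IL-21, which acts back on T cells, and IL-22, which acts on epithelium. Their cytokine genes are opened by STAT3, BATF and IRF4, and TGF-β is known to favour Th17 cells that also make IL-10 and IL-9. IL-2 is the T cell growth factor, IL-4 the signature of Th2 cells, and GM-CSF, the product of Csf2, a factor for myeloid cells.

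The start regions of Il17a, Il17f and Il9 are shown because these genes had the largest differences with temperature in WT among the 9 genes with a mean of at least 1 RPKM. They were read from the RefSeq promoter table of GRCm38.p6, which matched 8 of the 10 genes, all but Il10 and Il24. Each is the 250 bases before the annotated start, 5′ to 3′ on the strand of the gene, at chr1:20730655-20730904 (plus strand) for Il17a, chr1:20784271-20784520 (minus strand) for Il17f and chr13:56482258-56482507 (minus strand) for Il9. Capitals mark matches on either strand to the nuclear receptor half-site, the TATA box, the AP-1 site or the SMAD core, whose letters follow below the sequences.
Il17a: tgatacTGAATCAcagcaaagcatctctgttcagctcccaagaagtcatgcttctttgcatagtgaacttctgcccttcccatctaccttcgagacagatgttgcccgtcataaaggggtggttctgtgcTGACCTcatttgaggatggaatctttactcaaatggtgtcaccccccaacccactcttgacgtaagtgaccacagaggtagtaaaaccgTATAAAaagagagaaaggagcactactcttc
Il17f: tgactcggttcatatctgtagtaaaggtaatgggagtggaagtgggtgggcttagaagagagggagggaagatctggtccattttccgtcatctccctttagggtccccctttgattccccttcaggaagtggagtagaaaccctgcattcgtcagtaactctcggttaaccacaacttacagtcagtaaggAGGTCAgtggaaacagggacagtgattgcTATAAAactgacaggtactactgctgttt
Il9: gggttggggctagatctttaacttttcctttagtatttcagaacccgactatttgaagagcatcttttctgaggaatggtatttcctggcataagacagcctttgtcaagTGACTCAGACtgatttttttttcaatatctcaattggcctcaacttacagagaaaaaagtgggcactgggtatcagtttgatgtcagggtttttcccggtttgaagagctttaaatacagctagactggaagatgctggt

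The motifs were searched on both strands in windows of 300 bases, 250 before and 50 after the start. The 8 genes had 9 windows, since Il4 has 2 annotated starts, and a match in either window of Il4 counted. Counts below are thus per gene, while the percentages are per window. The nuclear receptor half-site (letters AGGTCA) began 120 bases before the start of Il17a and 58 bases before that of Il17f, and 29 bases after that of Il2. These were 3 of 8 genes, and 16.3% of all 32851 windows in the table held one. The box with the letters TATAAA lay 31 bases before the start of Il17a, 29 before Il17f, 31 before Il2 and 170 before Il22, and 13.6% of all windows had one. For the AP-1 site the letters TGANTCA were searched, in which N is any base. Matches were TGAATCA in Il17a, 244 bases before the start, and TGACTCA in Il9, 140 before, with 7.81% over all windows. AP-1 sites are known to be bound by dimers of BATF and JUN proteins, and the search did not weigh the middle base. The SMAD core (letters CAGAC) was present in 5 of 8 genes (Il21, Il22, Il4, Csf2 and Il9) and in 49.6% of all windows. In Il9 1 of its matches shares 2 bases with the AP-1 site, which gives the longer run of capitals. The NFAT core (GGAAAA) was in 5 of 8 genes against 23.4%, a GATA site (AGATAA) in 2 against 11.2% and a STAT site (TTCNNNGAA) in 1 against 8.30%. The heat shock element (GAANNTTC) and the E-box (CACGTG) were in 0 of 8, against 7.86% and 7.15%. A match describes letters in the window and was not tied to binding.

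Reads recovered from the deposited values came to between 18048961 and 18475245 per library. Levels are RPKM (reads per kilobase of exon and per unit of library size), so they can be compared between genes. With 1 library per group no ratio between 2 libraries had a replicate check, and 95% intervals on ratios cover counting error only. Separate animals or culture days for the libraries are not named in the labels. Smad4 was higher with the KO label, by a ratio of 1.48 (1.36 to 1.60) at 37 °C and 1.51 (1.39 to 1.63) at 39.5 °C, which goes against the label. Every genotype direction below is therefore that of the libraries as labelled. A level over all exons cannot tell whether some exons are missing. All 7 T cell markers were present (Cd4 at 192 to 212 RPKM). Summed markers of CD8 and NK cells (3 of 6 with a row) reached 4.17 to 5.69 RPKM, of B cells (1 of 5) 0.151 to 0.485, of myeloid cells (4 of 6) 2.77 to 8.47, of mast cells and basophils (1 of 6, Kit) 0.262 to 0.628 and of group 2 innate lymphoid cells (3 of 5) 0.394 to 4.11, and of erythroid cells and platelets (2 of 6) 0.178 to 0.620. Regulatory T cell markers (5 of 5), which activated T cells share in part, summed to 524 to 782 RPKM. Most of that sum was Il2ra, at 259 to 394 RPKM, and Ctla4, at 179 to 239 RPKM. Foxp3 stood at 7.80 and 5.10 RPKM in unheated and heated WT, and at 1.98 and 0.477 RPKM in the unheated and heated libraries labelled KO. In bulk RNA, fewer cells of a type and less RNA per cell cannot be told apart.

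Transcripts of the 2 IL-17 genes made up most of the summed cytokine level in all 4 libraries. Il17f was the highest of the 10 genes in every library, and Il17a was next in all but the library labelled KO at 37 °C, where Il21 stood between them. In each library the top 3 were Il17f, Il17a and Il21, and their counting intervals did not overlap. Il9 and Il2 exchanged places: Il2 was above Il9 in both libraries at 37 °C, Il9 was above Il2 in heated WT, and their intervals overlapped in the heated library labelled KO. Below these the order was not resolved everywhere. Il10 and Csf2 overlapped in both WT libraries, and each neighbouring pair from Il2 through Il24 and Il4 to Csf2 overlapped in the library labelled KO at 37 °C.

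**Figure D1:**
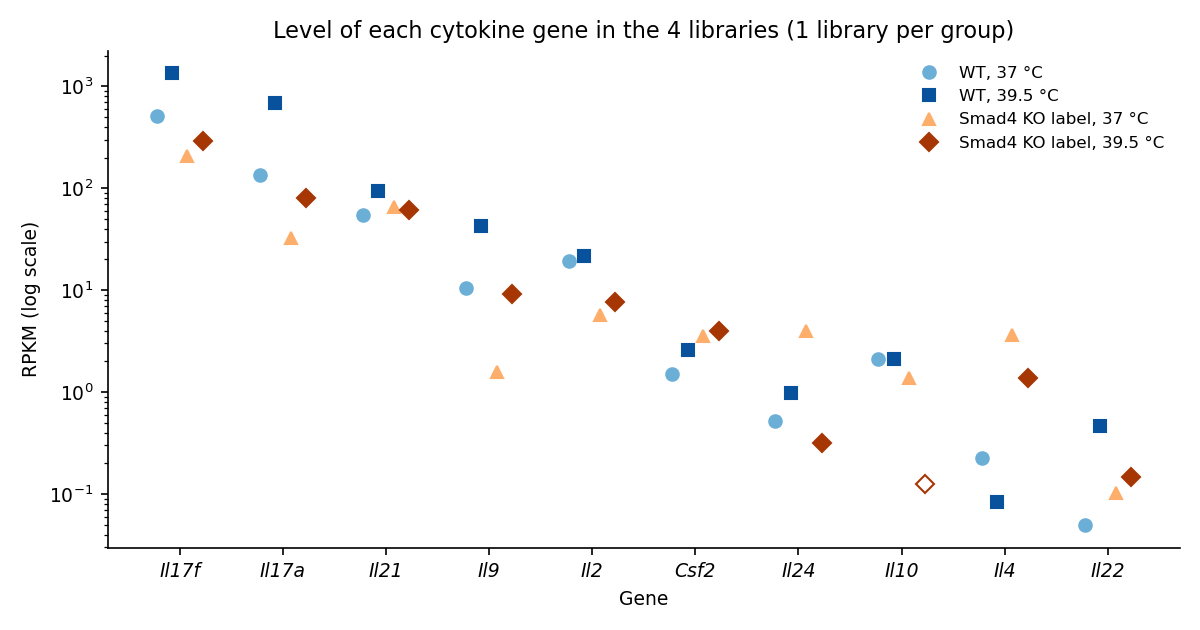
RPKM on a log axis for each of the 10 cytokine genes, ordered by mean level, with 1 symbol per library and no error bar. The open symbol for Il10 is drawn at the floor of 3 reads because that library had 0 reads. Il17f runs from 206 to 1338 RPKM and Il22 reaches at most 0.467 RPKM.

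Il17a and Il17f, neighbouring genes whose products form IL-17A and IL-17F dimers, were higher at 39.5 °C in both genotypes and lower with the KO label at both temperatures. Il17a (chromosome 1, 20730905 to 20734496, plus strand of GRCm38, GENCODE ENSMUSG00000025929.4) had 134 RPKM in unheated WT (37 °C), 686 in heated WT (39.5 °C), 32.6 in the unheated library labelled KO and 79.7 in the heated library labelled KO. The highest library was thus WT at 39.5 °C, and the heated library labelled KO remained below the unheated WT library. Il17f (20777146 to 20790617, minus strand) lies 42.6 kb away and stood at 516, 1338, 206 and 292 RPKM in the same order of libraries. Il17f had the same ranking of the 4 libraries as Il17a. In WT the ratio of 39.5 to 37 °C was 5.11 for Il17a (4.91 to 5.32) and 2.59 for Il17f (2.55 to 2.64). In the libraries labelled KO it was 2.45 (2.24 to 2.68) and 1.42 (1.38 to 1.46). The WT ratio exceeded the other by 2.09-fold for Il17a (1.89 to 2.30, an approximate counting interval) and 1.83-fold for Il17f (1.77 to 1.89). The level of Il17f relative to Il17a was 3.84 and 1.95 in WT at 37 and 39.5 °C and 6.32 and 3.67 in the libraries labelled KO.

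Il21, which encodes the STAT3-activating autocrine cytokine of Th17 and follicular helper cells, did not follow the IL-17 pair. It had 54.2 RPKM in unheated and 94.4 in heated WT, and 65.6 and 61.2 in the unheated and heated libraries labelled KO. Only the heated WT library stood apart, and the other 3 lay close together. The temperature ratio was 1.74 (1.68 to 1.80) in WT and 0.934 (0.901 to 0.968) in the libraries labelled KO. Scaled to the recovered reads the latter was 0.974 (0.940 to 1.01), an interval that spans 1. The library labelled KO was 1.21 times the WT level at 37 °C (1.17 to 1.26) and 0.649 times at 39.5 °C (0.628 to 0.670). Il21 lies on chromosome 3 (37222759 to 37232636), 96.8 kb from Il2, and the gene model Gm12534 overlaps it on the opposite strand.

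Il22, the epithelium-directed Th17 cytokine gene on chromosome 10 (118204942 to 118210047), was near the limit of detection in every library. It had 1 read in unheated and 10 in heated WT, and 2 and 3 in the unheated and heated libraries labelled KO, or 0.0495, 0.467, 0.102 and 0.147 RPKM. The WT temperature ratio of 9.43 had an interval of 1.34 to 409, and the other 3 ratios had intervals that span 1. Its mean was below 1 RPKM, so it is the 1 gene of the 10 that did not enter the fit across genes. GENCODE also lists Iltifb, a near-identical copy 79.6 kb away that was not analysed here, so reads of Il22 are uncertain between the 2 copies.

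Il10 and Il24, a pair of IL-10 family genes 132 kb apart on chromosome 1, were each lower in the heated than in the unheated library labelled KO. Il10 (131019845 to 131024974), the gene of the inhibitory cytokine IL-10, had 50 and 53 reads in unheated and heated WT, 32 in the unheated library labelled KO and 0 in the heated one. In RPKM these were 2.10, 2.10, 1.38 and 0, and 0 reads allow up to 0.124 RPKM with 3 reads as the floor per library. The WT temperature ratio was 1.0 with an interval of 0.667 to 1.5, so no difference was detectable there. The heated library labelled KO was at least 11.1-fold lower than its 37 °C partner and at least 16.8-fold lower than WT at 39.5 °C when set at the floor. The exact counting intervals, which also cover the reads of the partner, start at 8.54-fold and 13.2-fold. Il24 (130882074 to 130887454), the gene of a cytokine that signals to epithelium and keratinocytes, had 13, 26, 97 and 8 reads, or 0.515, 0.972, 3.97 and 0.314 RPKM in the same order. Only the library labelled KO at 37 °C stood high. It was 7.71 times the WT level at 37 °C (4.30 to 15), while the ratio of 39.5 to 37 °C in the libraries labelled KO was 0.0790 (0.0332 to 0.162). At 39.5 °C the library labelled KO was below WT, at 0.323 times (0.126 to 0.734), so the genotype difference in Il24 had opposite signs at the 2 temperatures. Il19 and Il20, which lie between Il24 and Il10, were not analysed here.

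Il9 and Il2 encode growth factors that signal through the common gamma chain, and both were lower with the KO label. Il9 (chromosome 13, 56479277 to 56482246, minus strand), whose product acts on mast cells and T cells, had 10.5 RPKM in unheated WT (103 reads), 42.8 in heated WT (443 reads), 1.59 in the unheated library labelled KO (15 reads) and 9.22 in the heated one (91 reads). Both heated libraries were above their partners, by 4.06-fold in WT (3.27 to 5.08) and 5.81-fold in the libraries labelled KO (3.35 to 10.8), and these intervals overlap. With the KO label Il9 was 0.15 times the WT level at 37 °C (0.0812 to 0.260) and 0.215 times at 39.5 °C (0.170 to 0.271). Group 2 innate lymphoid cells and mast cells can also make IL-9. The summed markers of the former were 0.509, 4.11, 0.394 and 1.05 RPKM in the order used above, mostly Areg. Areg is also on the list of other T cell cytokine genes below. Kit, for mast cells, stood at 0.628, 0.575, 0.515 and 0.262 RPKM. The part of such cells in the Il9 values was not tested. Il2 (chromosome 3, 37120523 to 37125959, minus strand) had 19.4 and 21.6 RPKM in unheated and heated WT, and 5.75 and 7.64 RPKM in the unheated and heated libraries labelled KO. Both WT libraries were above both libraries labelled KO. With the KO label it was 0.296 times the WT level at 37 °C (0.239 to 0.364) and 0.353 times at 39.5 °C (0.294 to 0.423), while the temperature ratios were 1.11 (0.973 to 1.27) in WT and 1.33 (1.04 to 1.70) in the libraries labelled KO. Adad1, which overlaps Il2 on the opposite strand, had 7, 7, 2 and 2 reads, and no source used here says whether the counting used strand, so reads of the overlapping pair cannot be told apart.

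Il4 and Csf2 were low, and both were higher with the KO label. Il4 (chromosome 11, 53602982 to 53618669, minus strand), the Th2 signature gene, had 5 and 2 reads in unheated and heated WT, and 78 and 31 in the unheated and heated libraries labelled KO, or 0.224, 0.0844, 3.60 and 1.37 RPKM. The 2 libraries labelled KO stood above both WT libraries, by 16.1-fold at 37 °C (6.62 to 51.0) and 16.3-fold at 39.5 °C (4.14 to 140.2). Between temperatures its ratio was 0.381 (0.243 to 0.584) in the libraries labelled KO and 0.377 in WT, where so few reads leave an interval of 0.0359 to 2.31. Il13, the other Th2 cytokine gene 12.7 kb away, had 0, 2, 2 and 6 reads. Of 6 listed markers of mast cells and basophils only Kit had a row. It stood at 0.628, 0.575, 0.515 and 0.262 RPKM in the same order. Summed γδ T cell markers (3 of 5 with a row) were 0.352, 0.358, 1.79 and 1.67 RPKM in the same order, with Tcrg-C1 at 0, 0, 24 and 24 reads and Trdc at 23, 24, 16 and 13 reads. The part of either cell type in the Il4 values, or of γδ T cells in those of Il17a and Il17f, was not tested. Csf2 (54247271 to 54249667, minus strand), which the gene model Gm12223 overlaps on the opposite strand, stood at 1.51, 2.59, 3.54 and 3.94 RPKM on 22, 40, 50 and 58 reads. Its ratio with the KO label was 2.35 at 37 °C (1.40 to 4.07) and 1.52 at 39.5 °C (0.999 to 2.34), and both temperature ratios had intervals that span 1. Il3, 15.6 kb from Csf2 and like it a growth factor gene for myeloid cells, had 0, 22, 1 and 5 reads, at least 6.92-fold higher at 39.5 °C in WT against the floor, with an exact interval that starts at 5.17-fold.

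**Figure D2:**
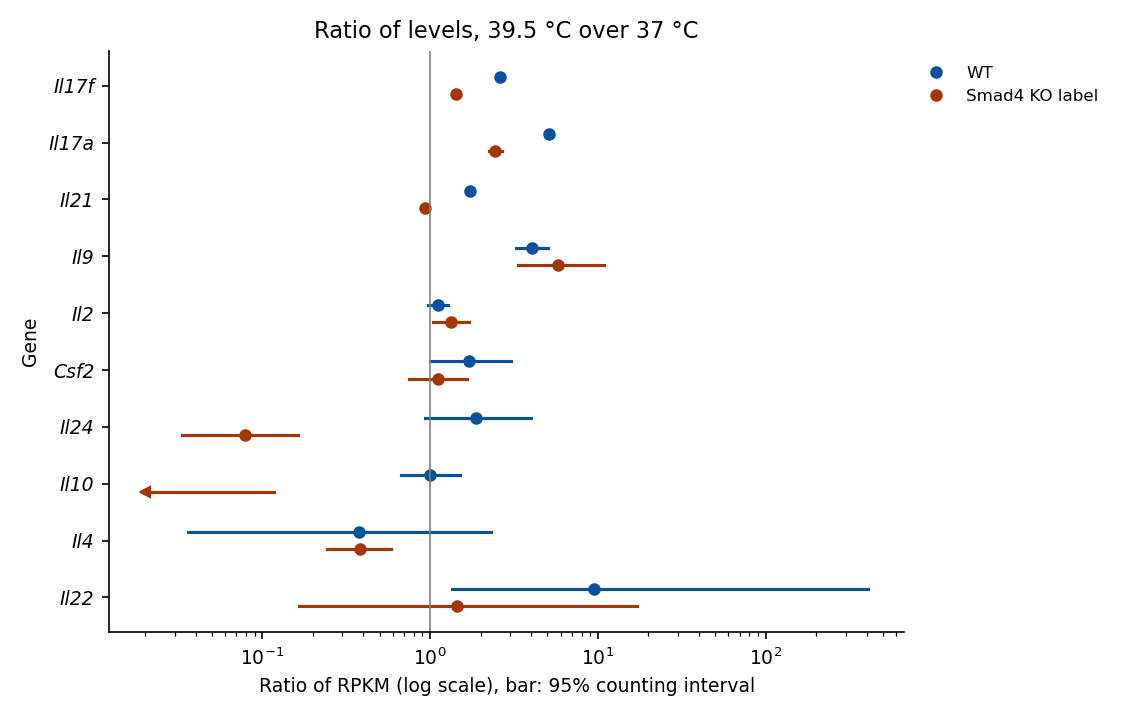
Ratio of RPKM at 39.5 °C to 37 °C on a log axis for each gene and each genotype label, with bars for 95% counting intervals and a line at 1. An arrow marks an interval that reaches 0. Il17a lies at 5.11 in WT and 2.45 with the KO label, and Il9 at 4.06 and 5.81, while Il24 and Il10 lie far below 1 only with the KO label.

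Counts by size used the log2(RPKM + 1) scale, on which low genes change by less than their RPKM do. Of the 9 with a mean of at least 1 RPKM, 3 were at least 2-fold higher at 39.5 °C in WT (Il17a, Il17f and Il9) and 0 were at least 2-fold lower. The background over 13715 genes was 1.46% higher and 0.525% lower. In the libraries labelled KO 2 were higher (Il17a and Il9) and 2 lower (Il10 and Il24), against 0.751% and 0.911%. Their median log2 ratio was 0.52 in WT and 0.12 in the libraries labelled KO, and over all genes −0.02 and −0.01. With the KO label at 37 °C, 2 were at least 2-fold higher (Il24 and Il4) and 4 lower (Il17a, Il17f, Il2 and Il9), against 4.7% and 1.14%. At 39.5 °C 1 was higher (Il4) and 5 were lower (those 4 and Il10), against 2.3% and 1.05%. The medians were −0.38 at 37 °C and −1.39 at 39.5 °C, and −0.01 and 0.0027 over all genes. Il4 and Il24 reached the mean of 1 RPKM only through the libraries labelled KO, and Il10 only through those of WT. The counts therefore describe these genes and support nothing further. Each library enters 1 temperature ratio and 1 genotype ratio, so the temperature and genotype values of a gene are not independent.

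**Figure D3:**
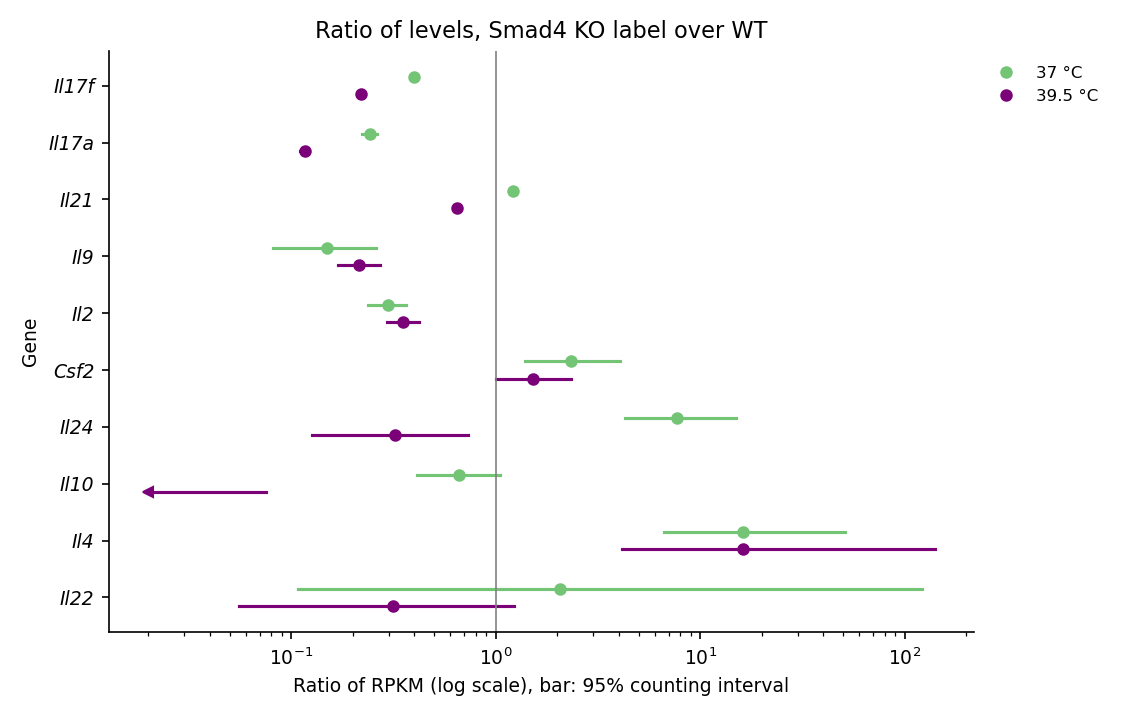
Ratio of RPKM in the library labelled Smad4 KO to WT on a log axis for each gene, at 37 °C and at 39.5 °C, with bars for 95% counting intervals and a line at 1. Il17f, Il17a, Il9 and Il2 lie below 0.4 at both temperatures and Il4 near 16 at both, while Il21 and Il24 change sides between the temperatures.

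Changes shared by both genotypes or by both temperatures were tested with limma in an additive fit of the 4 libraries, with Benjamini-Hochberg adjustment over 13715 genes. For temperature, 1 of the 9 cytokine genes rose and 0 fell, against a background of 0.0146% and 0.00729%. That gene was Il9 (log2 1.95 ± 0.12 SE, adjusted p = 0.0406, higher in 2 of 2 pairs). The call of Il9 ended without a variance trend (adjusted p = 0.0595) and without the filter on low values (0.283), and its adjusted p over 8 alternatives ran from 0.000341 to 0.283. Il17a (1.80 ± 0.26, adjusted p = 0.0910) and Il17f (0.94 ± 0.21, adjusted p = 0.164) did not pass. Unadjusted, 3 genes were higher and 0 lower at p under 0.05, and limma-voom on the recovered reads called 2 higher and 0 lower. Over all genes these shares were 7.17% and 6.79% unadjusted, and 1.64% and 0.926% by limma-voom. For the genotype label, 4 fell (Il17a, Il17f, Il2 and Il9) and 1 rose (Il4), against a background of 4.7% and 8.57%. Il9 fell by 2.13 ± 0.12 on the log2 scale (adjusted p = 0.00622), Il2 by 1.49 ± 0.13 (0.0104), Il17a by 2.55 ± 0.26 (0.0137) and Il17f by 1.76 ± 0.21 (0.0151). Il4 passed at 1.52 ± 0.23 (adjusted p = 0.0206), but it entered the fit only through the libraries in which it is high, so its call supports nothing further. Without the filter on low values all 5 calls ended, with adjusted p between 0.0546 and 0.0666, and over all alternatives the adjusted p of these 5 genes ran from 3.04e-05 to 0.0666. Csf2 (log2 0.66 ± 0.16, adjusted p = 0.0539), Il10 (−1.0 ± 0.31, 0.0856), Il24 (0.56 ± 0.51, 0.474) and Il21 (−0.17 ± 0.22, 0.612) did not pass. Each gene had 1 residual degree of freedom, taken from the interaction, since no group has a second library. Empirical Bayes also drew the variance of each gene toward that of other genes, with a weight of 4.47 degrees of freedom. The SE and p-values thus rest largely on other genes and do not measure spread between replicates.

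**Figure D4:**
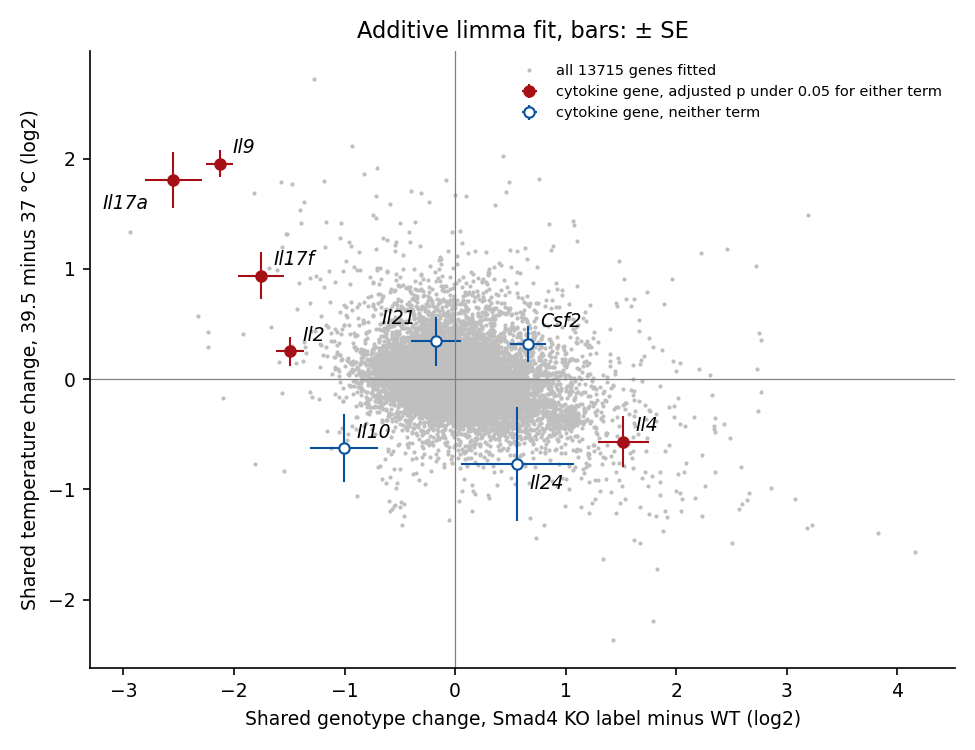
Shared temperature change against shared genotype change, both as log2 from the additive limma fit, for all 13715 genes (grey) and the 9 cytokine genes fitted, with bars for ± 1 SE. Il17a, Il9, Il17f and Il2 lie to the left, below −1.4 for genotype, with Il17a and Il9 near or above 1.8 for temperature, and Il4 lies to the right.

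The dependence of the temperature response on genotype had no residual error and was not tested, so only its values are given. Of the 9 genes, 3 had temperature log2 ratios at least 1 apart between the genotypes, and 2.22% of all genes did. They were Il24 (KO minus WT −2.30), Il10 (−1.25) and Il17a (−1.08). Il24 and Il10 reached the mean of 1 RPKM only through libraries in which they were high, so their place here supports nothing further. Il21 (−0.89) and Il17f (−0.87) also had the lower value with the KO label. Il9, at 0.06, and Il2, at 0.21, had small differences on the log2(RPKM + 1) scale, which shrinks the ratios of low genes. In RPKM the WT temperature ratio over that with the KO label was 0.698 for Il9 (0.388 to 1.26). For Il2 it was 0.837 (0.637 to 1.10), and both intervals span 1. For Csf2 the same quotient was 1.54 (0.811 to 2.94) and for Il4 0.991 (0.183 to 5.38), so at this depth neither could be told from 1.

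Summed over the 10 genes, cytokine transcripts reached 739 and 2189 RPKM in unheated and heated WT, and 324 and 456 RPKM in the unheated and heated libraries labelled KO. The IL-17 pair made up 88.0%, 92.5%, 73.6% and 81.6% of that sum. Il21 took 7.34% and 4.31% in WT, and 20.3% and 13.4% in the libraries labelled KO. Il9 held 1.43% and 2.0% in WT and 0.490% and 2.02% in the libraries labelled KO. Il2 held 2.63% and 0.989% in WT, at 19.4 and 21.6 RPKM. Il4, Il24 and Csf2 were each over 1% only in the library labelled KO at 37 °C, at 1.11%, 1.23% and 1.09%.

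**Figure D5:**
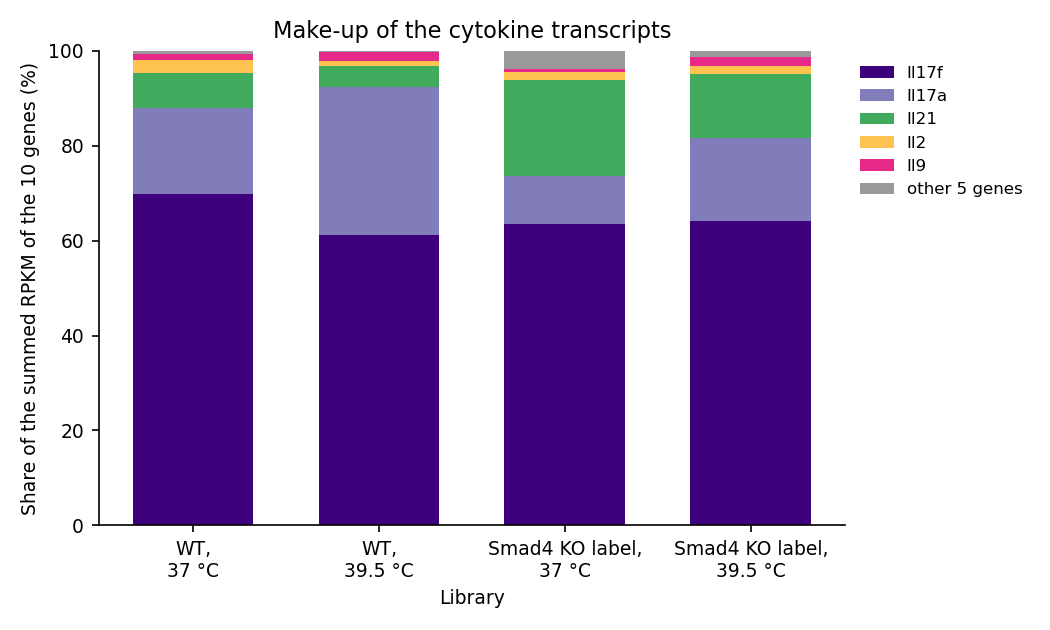
Stacked bars of each gene's share (%) of the summed RPKM of the 10 cytokine genes, 1 bar per library, with Il22, Il10, Il24, Il4 and Csf2 joined as the other 5 genes. Il17f and Il17a together fill 92.5% of the bar for WT at 39.5 °C and 73.6% of the bar for the library labelled KO at 37 °C.

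Genes of most like pattern were sought by the Euclidean distance between centred log2(RPKM + 1) profiles over the 4 libraries, for each cytokine gene with a 2-fold range. A distance over 4 libraries is a description and carries no test. Nearest to Il17a were the chemokine gene Xcl1 (distance 0.62), Il9 (0.72) and the tetraspanin gene Tspan2 (0.75). Il17f had Cxcr6, the receptor gene for CXCL16 (0.19), Cd247, which encodes the T cell receptor zeta chain (0.30), and the immunoglobulin kappa gene Igkc (0.44). Cxcr6 stood at 2.22, 7.05, 0.323 and 1.10 RPKM. The added 1 shrinks the ratios of low genes such as Cxcr6 and Xcl1 more than those of Il17f and Il17a. A short distance therefore does not mean equal ratios of RPKM. Il9 had Tspan2 (0.62), the repressor gene Zbtb32 (0.62) and Bdh2 (0.68). Near Il4 were Ppp1r3b (0.12) and the chromatin remodeller gene Chd7 (0.14). Il2 had Wdr74 (0.29), Aplp2 (0.30) and Mdfic (0.31). Closest to Il24 were Basp1 (0.44), an unnamed gene model (0.50) and the prion gene Prnp (0.51), and the 3 nearest to Il10 were unnamed gene models. Among the cytokine genes themselves Il17a and Il9 were the closest pair (0.72), and Il17a and Il17f were 1.18 apart.

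Other cytokine genes of T cells were on a list of their own. Of 38 listed, 20 had a row and 15 a mean of at least 1 RPKM. Their genotype changes passed in limma for 5 that rose and 1 that fell, against 8.57% and 4.7% over all genes, so the 1 that fell is near the background. Xcl1, a chemokine gene of activated T and NK cells, fell by 2.94 ± 0.30 on the log2 scale (adjusted p = 0.0137) and stood at 7.77, 33.1, 0.759 and 1.87 RPKM. Its 4 libraries had the same ranking as those of Il17a. Ltb, the lymphotoxin beta gene, rose by 1.61 ± 0.10 (adjusted p = 0.00622), from 210 and 133 RPKM in WT to 643 and 409 RPKM in the libraries labelled KO. Tgfb3, the TGF-β3 gene tied to pathogenic Th17 cells, passed at 2.02 ± 0.47 (0.0494) and was high in 1 library, with 0.227, 0.398, 9.30 and 1.73 RPKM. It entered the fit only through the libraries labelled KO, so its call supports nothing further. Ebi3, which encodes a subunit of IL-27 and IL-35, rose by 0.72 ± 0.14 (0.0348). The other two that rose, named after their values were seen, were Il16 (0.77 ± 0.13, adjusted p = 0.0237) and Tgfb1, the TGF-β1 gene (0.48 ± 0.11, 0.0474). For temperature 0 of the 15 passed in limma, with 5 higher and 3 lower at unadjusted p under 0.05 and 3 higher and 1 lower by limma-voom. All genes gave 7.17% and 6.79% unadjusted, and 1.64% and 0.926% by limma-voom. In WT 6 of the 15 were at least 2-fold higher at 39.5 °C and 0 lower, against 1.46% and 0.525% of all genes. In the libraries labelled KO 1 was higher and 1, Tgfb3, lower, against 0.751% and 0.911%. The higher 1 was Tnfsf11, the RANKL gene, at 6.28, 18.2, 6.79 and 18.1 RPKM. Tnfsf8, the CD30 ligand gene, stood at 6.40, 28.4, 18.9 and 34.3 RPKM, and Areg, the amphiregulin gene, at 0.361, 3.28, 0.327 and 0.715 RPKM. Areg reached the mean of 1 RPKM only through heated WT, so its place among the 6 higher there supports nothing further. The median log2 temperature ratio of the 15 was 0.21 in WT and −0.18 in the libraries labelled KO.

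Of 16 listed receptor genes for these cytokines 12 had a row and 9 were fitted, with 2 rising and 0 falling in limma, and at unadjusted p under 0.05 6 higher and 0 lower while limma-voom also called 2 and 0. Over all genes 8.57% rose and 4.7% fell in limma, 19% and 15.6% did so unadjusted and 11.9% and 9.39% by limma-voom. Il10ra, the ligand-binding chain for IL-10, passed at 1.58 ± 0.27 on the log2 scale (adjusted p = 0.0268), with 0.612, 0.474, 6.05 and 2.03 RPKM. Like Tgfb3 it entered the fit only through the libraries labelled KO, and its call supports nothing further. The highest Il10ra level thus lay in the library labelled KO at 37 °C, and the heated library labelled KO, with 0 reads of Il10, was next. Il21r, the IL-21 receptor gene, rose by 0.96 ± 0.16 (0.0253), with 39.3, 54.2, 93.6 and 88.6 RPKM. For temperature 0 of the 9 passed, and 0 had an unadjusted p under 0.05.

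Among transcription factor genes known to act on cytokine loci, 26 of 30 were fitted. With the KO label 5 fell and 3 rose in limma, against 4.7% and 8.57% of all genes, so the 3 that rose are near the background. Those that fell were Foxp3 (−1.81 ± 0.17, adjusted p = 0.0125), the Th17 factor gene Rora (−1.30 ± 0.16, 0.0157), Ikzf3, which encodes Aiolos, a factor tied to Il2 silencing (−1.24 ± 0.13, 0.0148), Batf (−1.10 ± 0.14, 0.0160) and Nfatc1 (−0.53 ± 0.12, 0.0463). Batf stood at 116 RPKM in both WT libraries and at 46.6 and 61.9 RPKM in the libraries labelled KO. Those that rose were Runx3, a factor of Th1 and CD8 T cells (0.91 ± 0.12, 0.0167), Nfatc2, which encodes a calcium-activated NFAT protein (0.90 ± 0.12, 0.0174), and the ETS factor gene Etv5 (0.59 ± 0.13, 0.0477). For temperature 0 of the 26 passed, with 6 higher and 2 lower at unadjusted p under 0.05 and 3 higher and 0 lower by limma-voom. The shares over all genes were again 7.17% and 6.79% unadjusted, and 1.64% and 0.926% by limma-voom. Gata3, the Th2 factor gene, is named outside the rule given below and stood at 0.662, 1.90, 1.03 and 1.75 RPKM. Its part in the Il4 values was not tested.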

How the data were processed

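RNA-seq of 4 libraries was used, 1 per combination of temperature and genotype label. Total RNA (Trizol) went into NEXTflex libraries, per the labels' protocols. Trim Galore 0.4.4, Bowtie2, Subread, featureCounts and edgeR are listed with build mm10 in the submitters' processing notes, which state no roles here. The authors deposited 1 table of RPKM values per library, with 19555 rows.

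RPKM is not a count, so no count test was the main test. Whole reads were recovered by scaling RPKM with a library size and the exon length from GENCODE vM21. Of 13144 rows matched by name, 91.7% were whole within 0.01 reads, and 19554 rows were whole within 0.003 reads (plus rounding) once each row could take its own length. The library sizes were 1.01, 1.06, 0.955 and 0.997 times the recovered reads.

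Ratios of RPKM carry exact Clopper-Pearson 95% intervals given the reads of both libraries, levels exact Poisson intervals and quotients of ratios Wald intervals. They and the floor of 3 reads cover counting error only, as reads had no molecular identifiers. The additive fit used limma 3.58.1 in R 4.3.3 on log2(RPKM + 1) for the 13715 rows whose mean reached 1 RPKM (empirical Bayes with a trend, threshold 0.05). Tested on simulated data, it also called some unchanged genes. Alternatives covered the pseudocount, filter, scaling, trend, robust variances and limma-voom. Named from each list were genes past 2-fold in at least 2 of the 4 pairs or past the limma threshold, up to 8. The cytokine genes, lists and motifs were chosen with earlier results of these data known. Some genes that met the naming rule are not reported here.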

Additional observations from a re-analysis of the deposited data

Results flagged for a closer look

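A temperature difference in opposite directions in WT and in the libraries labelled KO, with both counting intervals excluding 1, was looked for. It was found for 1 of the 10 cytokine genes and 2 of the 15 fitted genes among the other T cell cytokines. Il21 was higher at 39.5 °C in WT and slightly lower in the libraries labelled KO, with log2 temperature ratios that were −0.89 apart (KO minus WT). Scaled to the recovered reads, its ratio with the KO label was 0.974 (0.940 to 1.01) and no longer met this rule, while those of Lta (0.775, 0.751 to 0.799) and Lif (0.923, 0.895 to 0.952) did. Lta, the lymphotoxin alpha gene, had 160 and 333 RPKM in unheated and heated WT, against 387 and 287 RPKM with the KO label, with a difference of −1.48. Lif, the gene of leukaemia inhibitory factor, had 73.2 and 134 RPKM, then 113 and 99.9 RPKM, with a difference of −1.03. Of all 13715 genes with a mean of at least 1 RPKM, 8.38% met the same rule, so these counts are near the background. With 1 library per group these differences were not tested.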

How the results depend on the processing

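The number of cytokine genes past 2-fold stayed within 1.5 times in each of the 4 pairs with a pseudocount of 0.1, with upper quartile scaling and with scaling to recovered reads, and so did the number at least 1 apart between genotypes. None of those scalings moved the median of all genes by over 0.1. In the additive fit, 1 gene rose with temperature; the number was 0 without the filter on low values, 3 with a mean of at least 5 RPKM (Il17a, Il17f and Il9), 0 without a variance trend and 2 by limma-voom (Il17a and Il9). With the genotype label 1 rose and 4 fell; without the filter on low values both numbers were 0, and with a mean of at least 5 RPKM 0 rose, since Il4 was then not fitted. Over all genes the temperature calls ranged from 0 to 352 and the genotype calls from 0 to 2914. Of 136 single-gene limma values under alternatives 126 kept their direction and their side of the threshold, 3 newly passed it and 7 lost it; the cause was not tested. Of 108 single-gene log2 ratios 3 newly passed 2-fold, all with a pseudocount of 0.1, which shrinks low values less: Il4 between temperatures with the KO label (−0.96 to −1.33), Csf2 between labels at 37 °C (0.86 to 1.18) and Il24 between labels at 39.5 °C (−0.59 to −1.37). No paired analysis was possible because the labels give no replicate numbers and each group has 1 library. Il22, Il4, Il24, Il10 and Csf2 rest on under 100 reads in any library, which limits their ratios. Il9 had 15 and 91 reads in the unheated and heated libraries labelled KO, which limits its ratios with them.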
